A study of Mus musculus with 12 samples.

Results

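The 36 genes described here act in glucose uptake, glycolysis, lactate export and the cellular response to low oxygen. They were chosen by name for these roles, with earlier results of these data known. Counts set beside the shares of all genes therefore describe this set only. The genes were followed in 3 mouse acute myeloid leukaemia (AML) cell lines, with 4 arrays for each line. TB14 and TB13 are lines that express both Trib1 and Bcl11a, and Trib1 is a line that expresses Trib1 without Bcl11a. Trib1 encodes a pseudokinase that directs the degradation of the transcription factor C/EBPα, and Bcl11a encodes a zinc finger transcriptional repressor. All 3 lines thus expressed Trib1, all were grown in IMDM with fetal bovine serum and the growth factor IL-3, and none was treated. Trib1 alone was represented by 1 line, so the spread between lines of that kind was not measured. The labels do not state how the lines were derived, nor whether the 4 arrays of a line came from separate cultures, and the p-values therefore measure the spread between arrays, and that spread may be a technical one.

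Of the 36 genes, 32 had a probe set annotated to that gene alone, and 30 were bright enough to be tested among 11223 genes. Gpi1, Eno1 and P4ha1 are not analysed here, and the probe set for Pgam1 was shared with Pgam1-ps1. Eno2, an enolase, had mean intensities of 7.76 in TB14, 9.60 in TB13 and 8.06 in Trib1 and P4ha2, a collagen prolyl hydroxylase, of 13.9 in TB14, 15.6 in TB13 and 13.0 in Trib1 (n = 4 arrays each), and both stayed under the brightness limit, which asked that a probe set exceed the median of its array on 4 or more of the 12. The 30 tested genes exceeded the array median on all 12 arrays, apart from Slc16a3, which did so on 4 TB14, 3 TB13 and 0 Trib1 arrays. Slc16a3 thus entered the test only through the lines where it was high and had to differ from Trib1, so its values are given as a description and its place in the counts below supports nothing.

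Glycolysis converts glucose to pyruvate through a chain of cytosolic enzymes and yields ATP without oxygen. Lactate dehydrogenase turns the pyruvate into lactate, which leaves the cell through monocarboxylate transporters, while pyruvate dehydrogenase kinases hold pyruvate back from the mitochondria. Many of these genes are known targets of hypoxia-inducible factor (HIF), a dimer whose alpha subunit is marked for degradation by prolyl hydroxylases when oxygen is present. Haematopoietic cells depend on growth factors such as IL-3 for glucose uptake, and leukaemic cells are known for high glycolytic activity.

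The values were deposited intensities on a linear scale, and the TB13 arrays were on another scale than the other 8. Array medians were 25.5 to 25.9 in TB13, 20.8 to 21.1 in TB14 and 21.1 to 21.4 in Trib1. Upper quartiles were 71.8 to 72.5 in TB13, 106 to 109 in TB14 and 102 to 106 in Trib1. A control for nonspecific signal read 461 to 622 in TB13, 189 to 205 in TB14 and 187 to 200 in Trib1. TB13 thus differed in range as well as level, and a scaling can move dim and bright genes differently. The median log2 difference of the 18 hybridization controls, RNAs added to every array in set amounts, was 0.0010 for TB14 minus Trib1, but -0.93 for TB13 minus Trib1 and 0.97 for TB14 minus TB13. Over all tested genes the median log2 change was -0.0024 in TB14 minus Trib1 and -0.39 in TB13 minus Trib1, and quantile scaling of the arrays brought the median of TB13 minus Trib1 to 0.026. Median scaling moved it to -0.55 and scaling on the hybridization controls to 0.51. Line and array scale cannot be told apart for TB13. For that reason TB13 results are given both on the deposited scale and with quantile scaling, and calls that held on all 4 scalings tried (deposited, quantile, median and the hybridization controls) are named. All 10 myeloid markers checked, among them Spi1, Itgam, Csf1r and Mpo, were above the array median in each line. Their summed intensity was 8103 to 8178 on TB14 arrays, 4764 to 4955 on TB13 arrays and 7190 to 7374 on Trib1 arrays. In TB14 minus Trib1, 3 of the 10 were called higher and 7 lower. Of the 5 stromal and endothelial markers 2, Pdgfrb and Pecam1, were above the median in every line, and the list summed to 669 to 710 in TB14, 334 to 399 in TB13 and 863 to 912 in Trib1. Of the 5 T and NK cell markers 3 were above it in TB14, 3 in TB13 and 4 in Trib1, with sums of 137 to 141 in TB14, 225 to 268 in TB13 and 202 to 214 in Trib1. Of the 4 measured B cell markers 2 were above it in TB14, 3 in TB13 and 2 in Trib1, with sums of 86.4 to 93.9 in TB14, 123 to 139 in TB13 and 90.5 to 94.4 in Trib1. Of the 3 measured erythroid markers 1 was above it in TB14, 2 in TB13 and 1 in Trib1, with sums of 101 to 111 in TB14, 153 to 179 in TB13 and 98.3 to 112 in Trib1. The part of any of these markers in the results was not tested.

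The first comparison asked how the glycolytic and hypoxia genes of a Bcl11a-expressing line differed from those of the Trib1 line. In TB14 cells most of them were moderately higher than in Trib1 cells. Of the 30 genes, 22 rose in TB14, 5 fell and 3 were not called (limma, Benjamini-Hochberg adjusted p under 0.05). Of all tested genes, 27.0% were called higher and 21.5% lower in this contrast. The median log2 change was 0.24 over the 30 genes and -0.0024 over all genes. After quantile scaling the counts were again 22, 5 and 3, beside 22.9% and 20.9% of all genes, and 21 of the 30 genes were called higher and 4 lower under all 4 scalings, beside 21.5% and 17.6% of all genes. The 5 genes that fell as deposited were Slc2a3, Hk3, Aldoc, Ddit4 and Vegfa. In RNA from a whole culture, fewer cells of a type and less RNA per cell cannot be told apart.

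**Figure D1:**
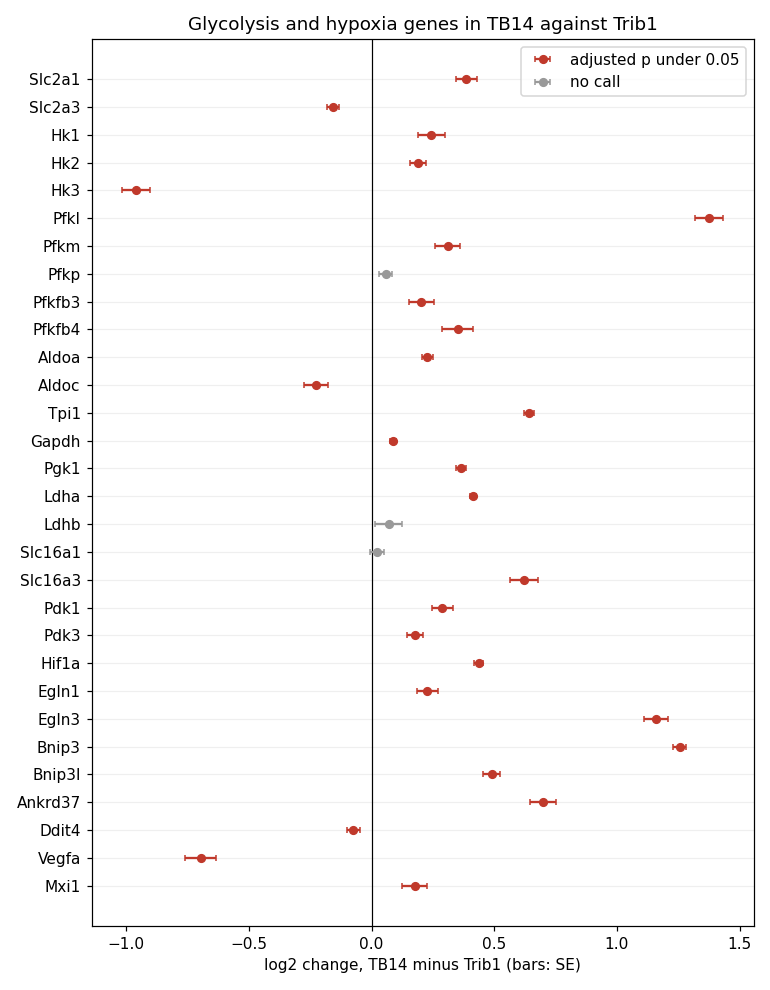
Log2 change (x axis, TB14 minus Trib1, deposited scale, bars are SE of the fit on 4 arrays per line) of the 30 tested genes, ordered by role from glucose transport at the top to hypoxia response genes at the bottom. Pfkl, Bnip3 and Egln3 lay beyond 1, while Hk3, Vegfa, Aldoc, Slc2a3 and Ddit4 lay below 0.

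A change of 2-fold or more was seen for 3 genes, Pfkl, Bnip3 and Egln3, all higher in TB14 than in Trib1, and for none in the other direction. Of all tested genes, 1.02% rose and 1.79% fell by 2-fold or more. After quantile scaling 3 genes rose and 0 fell by that much, beside 0.855% and 1.68% of all genes. Pfkl, the liver-type phosphofructokinase that commits sugar to glycolysis, had intensities of 442, 446, 461 and 431 on the 4 TB14 arrays, against 154, 163, 168 and 169.7 on the 4 Trib1 arrays. The groups did not overlap, and the log2 change was 1.38 (SE 0.0589, limma adjusted p = 1.87e-13), or 2.59-fold. Bnip3, a mitochondrial membrane protein that acts in mitophagy, read 1151, 1144, 1170.1 and 1159.8 in TB14, against 471, 484, 488 and 465 in Trib1. Every TB14 value lay above every Trib1 value, and the log2 change was 1.26 (SE 0.0269, limma adjusted p = 5.08e-18). Egln3, a prolyl hydroxylase that acts on the HIF alpha subunit and is itself induced by HIF, read 595, 567, 596 and 564 in TB14, against 237, 258, 267 and 252 in Trib1. These groups were also apart, and the log2 change was 1.16 (SE 0.0484, limma adjusted p = 1.33e-13).

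The promoters of these 3 genes are shown because they had the largest rises in TB14 and because HIF binds the core of the hypoxia response element, ACGTG or GCGTG. Each is the RefSeq window from 250 bases before to 50 bases after the annotated start (GRCm38.p6), read 5′ to 3′ along the gene's own strand, with matches to either core, on either strand, in capitals. Pfkl lies at chr10:78009758-78010057, Bnip3 at chr7:138909457-138909756 and Egln3 at chr12:54203825-54204124, all on the minus strand.
Pfkl: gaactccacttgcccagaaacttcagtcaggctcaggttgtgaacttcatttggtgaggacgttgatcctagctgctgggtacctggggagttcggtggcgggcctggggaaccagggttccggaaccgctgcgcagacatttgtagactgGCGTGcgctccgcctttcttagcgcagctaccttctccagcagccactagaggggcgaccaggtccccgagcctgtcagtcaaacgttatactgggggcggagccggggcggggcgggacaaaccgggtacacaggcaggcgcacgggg
Bnip3: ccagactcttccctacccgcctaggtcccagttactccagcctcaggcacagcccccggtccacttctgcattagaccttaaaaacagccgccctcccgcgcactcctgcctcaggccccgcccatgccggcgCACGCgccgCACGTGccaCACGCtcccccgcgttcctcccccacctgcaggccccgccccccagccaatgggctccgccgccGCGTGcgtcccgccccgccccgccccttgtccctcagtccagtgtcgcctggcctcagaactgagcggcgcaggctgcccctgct
Egln3: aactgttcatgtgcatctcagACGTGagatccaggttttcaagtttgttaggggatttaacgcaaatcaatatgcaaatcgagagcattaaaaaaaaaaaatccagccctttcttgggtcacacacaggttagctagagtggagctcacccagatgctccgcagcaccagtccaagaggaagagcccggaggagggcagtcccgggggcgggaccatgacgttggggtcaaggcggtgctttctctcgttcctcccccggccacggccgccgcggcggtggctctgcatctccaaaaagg
Pfkl and Egln3 held 1 core each and Bnip3 held 5, of which a pair overlapped on opposite strands. Over the genes of the set, RefSeq windows were found for 34 of 36, with 49 windows in all. A core of either kind stood in 40 of these 49 windows (81.6%), as against 43.8% of all 32851 windows and 59.8% of the 11595 windows of tested genes. ACGTG stood in 59.2% of the windows of the set, 25% of those of tested genes and 19.6% of all, and GCGTG in 57.1%, 48.2% and 32.4%. The E-box CACGTG, which holds ACGTG on both strands, stood in 12.2%, 9.6% and 7.15%. The median G and C content was 63% in the windows of the set, 60% in those of tested genes and 52.7% in all windows, and its part in the motif shares was not tested. The set was chosen to include hypoxia response genes, many of them known HIF targets. A higher share of cores can follow from that choice and says nothing about TB14. Windows of 1 gene can overlap and are not independent, and windows of untested genes of the set are included. A match describes the letters of the window and is not a measured binding site.

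The genes of glucose uptake and of the first phosphorylation moved in both directions. Slc2a1, the widespread glucose transporter GLUT1, read 455, 448, 445 and 462 in TB14, against 336, 334, 350.0 and 352 in Trib1. All TB14 arrays were above all Trib1 arrays, and the log2 change was 0.39 (limma adjusted p = 2.99e-07). Slc2a3, the transporter GLUT3, went the other way on its brightest probe set, with 979.9, 980.0, 1001 and 1005 in TB14, against 1124, 1080.2, 1138 and 1089 in Trib1, and a log2 change of -0.16 (limma adjusted p = 9.34e-06). That direction depended on the probe set. Slc2a3 had 4 of them, and in a fit over all probe sets a second one, whose name ends in x_at, was also lower in TB14 (log2 change -0.23), while the dimmer pair was higher by 0.43 and 0.48 (limma adjusted p = 2.62e-05 and 1.06e-07). Among hexokinases, which trap glucose in the cell, Hk1 averaged 634 ± 5.89 in TB14 and 534 ± 19.9 in Trib1 (SD, n = 4 each), and Hk2 averaged 747 ± 6.37 in TB14 and 654 ± 15.1 in Trib1. Both rose, with log2 changes of 0.24 and 0.19 (limma adjusted p = 0.00122 and 4.53e-05). The size for Hk1 depended on the probe set, with 0.71 on its dimmer one and 0.48 for the mean of both. Hk3, the hexokinase typical of myeloid cells, fell, with 105, 109, 110.2 and 103 in TB14, against 201, 233, 221 and 225 in Trib1. Its groups were apart by a wide margin, and its log2 change of -0.96 (limma adjusted p = 3.21e-11) was the largest fall among the 30 genes.

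**Figure D2:**
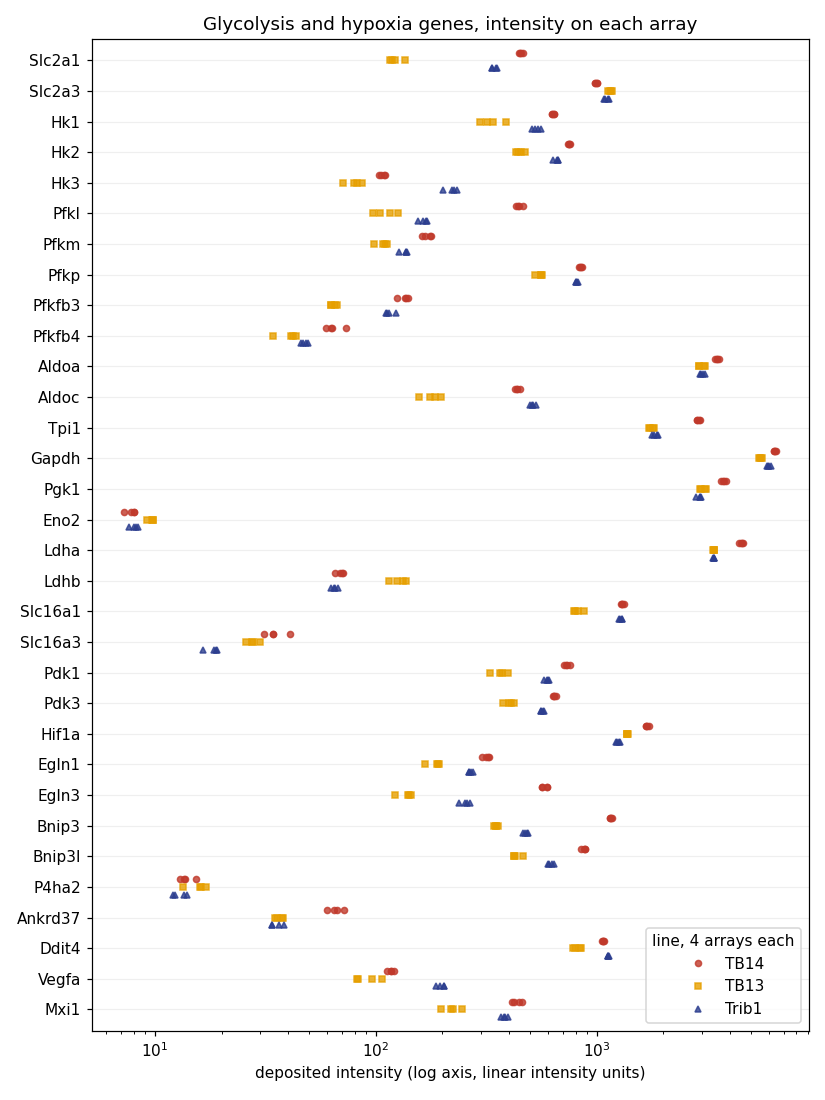
Deposited intensity (log axis) of the 32 genes with a probe set, untested Eno2 and P4ha2 included, 1 point per array and 4 arrays per line, with TB14 drawn above TB13 and TB13 above Trib1 in each row. Pfkl, Bnip3 and Egln3 stand highest in TB14, Hk3 and Vegfa stand highest in Trib1, and Ldhb stands highest in TB13.

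**Figure D3:**
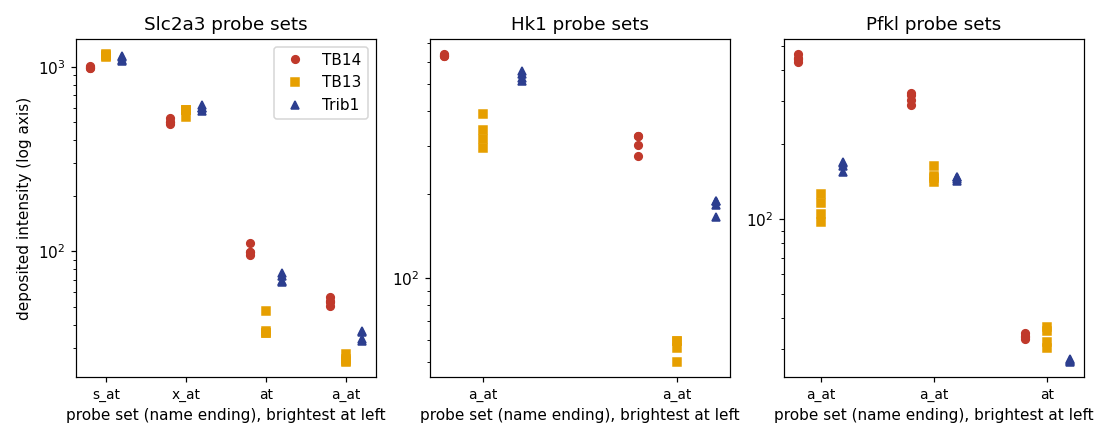
Deposited intensity (log axis) on every array for each probe set of Slc2a3, Hk1 and Pfkl, brightest probe set at the left, 4 arrays per line. For Slc2a3 the brighter pair of probe sets read lower in TB14 than in Trib1 and the dimmer pair read higher, while both Hk1 probe sets and all Pfkl probe sets read higher in TB14.

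The other phosphofructokinase subunits and their regulators had smaller log2 changes than Pfkl. Pfkm, the muscle-type subunit, averaged 170.1 ± 7.37 in TB14 and 135 ± 5.11 in Trib1, a log2 change of 0.31 (limma adjusted p = 3.89e-05). Pfkp, the platelet-type subunit, averaged 844 ± 13.3 in TB14 and 809.9 ± 6.10 in Trib1 and was not called as deposited (log2 change 0.058, limma adjusted p = 0.0828), though it was called higher after quantile scaling (log2 change 0.060). The other probe sets of Pfkl gave log2 changes of 1.01 and 0.23, both called higher. Pfkfb3 and Pfkfb4 make fructose 2,6-bisphosphate, the activator of phosphofructokinase. Pfkfb4 averaged 64.4 ± 5.92 in TB14 and 47.7 ± 1.51 in Trib1 (log2 change 0.35). Pfkfb3 averaged 134 ± 6.47 in TB14 and 115 ± 5.38 in Trib1, and its call as deposited (log2 change 0.20, limma adjusted p = 0.00262) was lost after quantile scaling (limma adjusted p = 0.057), while its dimmer probe set gave 0.44 as deposited.

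Among the tested genes of the set from aldolase to phosphoglycerate kinase, those for triose phosphate isomerase and phosphoglycerate kinase rose most. Tpi1, which interconverts the triose phosphates, read 2921, 2894, 2850.4 and 2837 in TB14, against 1821, 1861, 1777 and 1895 in Trib1. Its groups were far apart for so bright a probe set, with a log2 change of 0.64 (limma adjusted p = 4.34e-15), and a second probe set gave 0.69. Pgk1, the first ATP-yielding enzyme of the pathway, averaged 3741 ± 76.4 in TB14 and 2899.9 ± 64.2 in Trib1, a log2 change of 0.37 (limma adjusted p = 1.3e-11). Aldoa, the main aldolase of most tissues, rose by 0.23 (limma adjusted p = 2.25e-08), and its other 3 probe sets gave 0.25, 0.26 and 0.28. Aldoc, the aldolase known from brain, fell instead, with 428, 435, 434 and 448 in TB14, against 499, 509, 530.2 and 512 in Trib1. The 4 TB14 values lay below the 4 Trib1 values, at a log2 change of -0.23 (limma adjusted p = 0.000833). Gapdh, often used as a loading control, read 6399, 6459.6, 6344 and 6354 in TB14, against 5969.8, 6031, 6154 and 5883 in Trib1, a small called rise of 0.088 (limma adjusted p = 9.78e-06). The array's separate control probe set at the 3′ end of Gapdh kept that order, with 5904 to 6021 in TB14, 5127 to 5191 in TB13 and 5437 to 5536 in Trib1. The ratio of its 3′ to its 5′ control, a sign of RNA integrity, was 0.905 to 0.921 in TB14, 0.919 to 0.942 in TB13 and 0.891 to 0.907 in Trib1, and the part of these small differences in the results was not tested.

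On the side of lactate, the A subunit of lactate dehydrogenase rose and the B subunit was not called. Ldha, which favours lactate formation, read 4488, 4539, 4562 and 4406 in TB14, against 3389, 3372, 3400.1 and 3349.8 in Trib1. The arrays of each line differed little, and the log2 change was 0.41 (limma adjusted p = 1.12e-15). Ldhb averaged 68.7 ± 2.63 in TB14 and 64.8 ± 2.06 in Trib1, with a log2 change of 0.069 (limma adjusted p = 0.341). Slc16a3, the lactate exporter MCT4, was dim and read 34.0, 40.8, 34.2 and 31.2 in TB14, against 16.5, 19.2, 18.5 and 18.9 in Trib1. All 4 Trib1 values lay under the medians of their arrays. Its log2 change was 0.62, damped by the constant added before taking logs. Slc16a1, the transporter MCT1, averaged 1302 ± 14.4 in TB14 and 1282 ± 20.2 in Trib1 and was not called (log2 change 0.022, limma adjusted p = 0.562).

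Pdk1 and Pdk3, kinases that switch off pyruvate dehydrogenase, both rose in TB14. Pdk1 averaged 730.0 ± 17.1 in TB14 and 595 ± 11.8 in Trib1 (log2 change 0.29, limma adjusted p = 1.07e-05), and Pdk3 averaged 641 ± 10.1 in TB14 and 566 ± 10.9 in Trib1 (log2 change 0.18). Among the genes of oxygen sensing, Hif1a, the oxygen-regulated HIF subunit, read 1674, 1671, 1719 and 1687 in TB14, against 1253, 1231, 1268 and 1225 in Trib1. All TB14 arrays were above all Trib1 arrays, with a log2 change of 0.44 (limma adjusted p = 1.57e-13). This is a transcript level, and HIF activity is set mostly through protein stability, which the arrays did not measure. Egln1, the main HIF prolyl hydroxylase, rose by 0.23 (limma adjusted p = 0.000263), and its second probe set gave 0.65.

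The hypoxia response genes held both rises and falls. Bnip3l, the relative of Bnip3 that clears mitochondria, averaged 873 ± 14.5 in TB14 and 619 ± 19.0 in Trib1, a log2 change of 0.49 (limma adjusted p = 2.33e-10). Ankrd37, an ankyrin repeat gene known as a HIF target, read 60.1, 66.6, 71.3 and 64.8 in TB14, against 33.8, 36.3, 33.8 and 38.2 in Trib1. Its groups did not overlap, at a log2 change of 0.70 (limma adjusted p = 1.55e-09). Mxi1, a Myc antagonist of the Mad family, rose by 0.18 (limma adjusted p = 0.00781), and its second probe set gave 0.36. Vegfa, the angiogenic growth factor, fell, with 117, 117, 112 and 120.2 in TB14, against 196, 203, 204 and 186 in Trib1. Every TB14 value lay well below every Trib1 value, at a log2 change of -0.70 (limma adjusted p = 1.82e-08), and a second probe set gave -0.31. Ddit4, an inhibitor of mTORC1 also known as REDD1, averaged 1066 ± 6.57 in TB14 and 1123 ± 7.24 in Trib1. Its log2 change of -0.074 (limma adjusted p = 0.0223) was no longer called without TB14 replicate 3 (adjusted p = 0.0583) or without Trib1 replicate 1 (adjusted p = 0.0609), nor with the hybridization controls setting the scale (-0.048, adjusted p = 0.344) or without a variance trend (adjusted p = 0.0714).

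The second comparison set the other Bcl11a-expressing line, TB13, against Trib1. It used the same 4 Trib1 arrays as the first, so the 2 comparisons are not independent. As deposited, 5 of the 30 genes were higher in TB13, 22 were lower and 3 were not called, beside 29.0% of all tested genes called higher and 63.6% lower. After quantile scaling, 15 were called higher, 8 lower and 7 not, beside 41.9% and 38.4% of all genes. The median log2 change of the 30 genes was -0.49 as deposited, against -0.39 for all genes, and 0.040 after quantile scaling, against 0.026 for all genes. By 2-fold or more, 0 of the 30 genes rose and 4 fell as deposited (Slc2a1, Hk3, Aldoc and Vegfa), beside 1.01% and 14.8% of all genes. After quantile scaling 1, Ldhb, rose by that much and 0 fell, beside 5.24% and 4.03%. Of the 30 genes, 12 lay above the median of all genes as deposited, 16 after quantile scaling, 12 after median scaling and 8 with the hybridization controls. With those controls the median log2 change was 0.22 over the 30 genes and 0.51 over all genes.

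A call in the same direction under all 4 scalings was obtained for 7 of the 30 genes. Of these 2, Ldhb and Slc16a3, were higher in TB13, beside 22.5% of all genes, though Slc16a3 had been admitted by its brightness outside Trib1, and Slc2a1, Hk3, Aldoc, Gapdh and Slc16a1 were lower, beside 11.0%. Ldhb, the lactate dehydrogenase subunit that favours pyruvate formation, read 137, 132, 114 and 124 in TB13, against 62.4, 64.4, 65.1 and 67.4 in Trib1. The groups did not overlap, and the log2 change was 0.85 as deposited (limma adjusted p = 2.46e-11) and 1.44 after quantile scaling. The size depended on the probe set, since a dimmer one for Ldhb gave 0.29 as deposited and 0.12 after quantile scaling. Slc16a3 read 29.9, 27.5, 27.9 and 25.8 in TB13, against 16.5, 19.2, 18.5 and 18.9 in Trib1, with log2 changes of 0.39 as deposited and 0.22 after quantile scaling. The TB13 arrays had medians of 25.5 to 25.9, against 21.1 to 21.4 on the Trib1 arrays.

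Slc2a1 was low in TB13, with 122, 118, 135 and 115 in TB13, against 336, 334, 350.0 and 352 in Trib1. Its log2 change was -1.40 as deposited (limma adjusted p = 4.09e-16) and -0.65 after quantile scaling (limma adjusted p = 3.5e-10). Hk3 read 86.1, 71.0, 82.2 and 79.4 in TB13, against 201, 233, 221 and 225 in Trib1, with log2 changes of -1.33 and -0.75 on those scalings. Hk3 was thus lower than in Trib1 in both Bcl11a-expressing lines, on every scaling. Aldoc read 156, 186, 198 and 176 in TB13, against 499, 509, 530.2 and 512 in Trib1, with log2 changes of -1.46 as deposited and -0.70 after quantile scaling, and was likewise lower in both lines. Slc16a1 averaged 819.9 ± 40.3 in TB13 and 1282 ± 20.2 in Trib1, with log2 changes of -0.64 and -0.23, and Gapdh had -0.12 and -0.14.

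The genes that rose most in TB14 had no settled direction in TB13. Pfkl read 126, 105, 116 and 97.1 in TB13, with a log2 change against Trib1 of -0.52 as deposited and 0.16 after quantile scaling. Bnip3 read 351, 358, 343 and 350.3, with -0.43 and 0.26, and the sign turned as it did for Pfkl. Egln3 read 140.4, 122, 144 and 140.3, with -0.83 as deposited and -0.076 after quantile scaling, where it was not called (limma adjusted p = 0.18). Its second probe set gave -0.12 as deposited, not called (limma adjusted p = 0.0793), and 0.41 after quantile scaling. Vegfa was lower on the deposited and quantile scalings (-1.01 and -0.37), but its sign turned when the hybridization controls set the scale. Its second probe set gave -0.18 as deposited and 0.43 after quantile scaling. Hif1a read 1378, 1362, 1373 and 1364 in TB13, above all Trib1 arrays, with 0.14 as deposited and 0.42 after quantile scaling, but -0.034 after median scaling. Ldha, and Aldoa on its brightest probe set, were nearly level as deposited, with log2 changes of 0.0024 and 0.0018, and neither was called there. Other Aldoa probe sets gave -0.19 and -0.12 as deposited, both called lower (limma adjusted p = 7.2e-09 and 0.000556), and 0.043, not called (limma adjusted p = 0.0566). Other probe sets of these genes could differ in sign. Hk1 had -0.66 on the brighter and -1.50 on the dimmer one as deposited, and 0.037, not called, and -1.15 after quantile scaling. Egln1 likewise had -0.50 and -1.06 as deposited, and 0.27 and -0.66 after quantile scaling. Bnip3l after quantile scaling had 0.13 on the brightest and -0.39 and -0.51 on the others. Slc2a3 again depended on the probe set, with 0.052 on the brightest (limma adjusted p = 0.0379) and -0.71 and -0.30 on the dimmer pair. For Pfkl the middle of its 3 probe sets had 0.038 as deposited, not called, and 0.76 after quantile scaling, and the dimmest had 0.22, called higher, and 0.077.

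**Figure D4:**
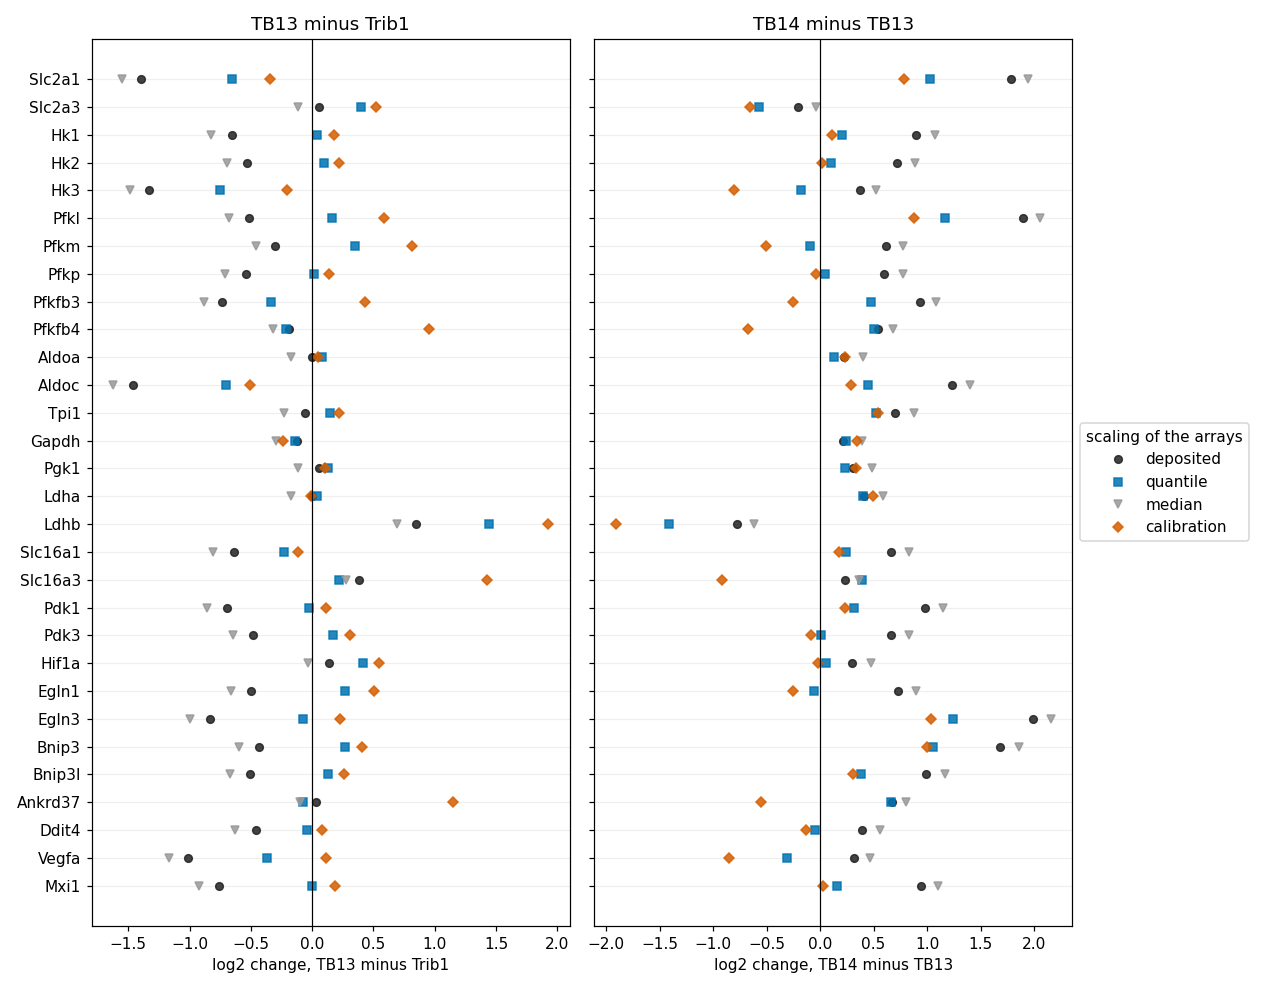
Log2 change of the 30 genes in TB13 minus Trib1 (left) and TB14 minus TB13 (right) under 4 scalings of the arrays, 1 symbol per scaling and 4 arrays per line. Slc2a1, Hk3 and Aldoc stay below 0 and Ldhb stays above 0 on the left, and Pfkl, Egln3, Bnip3 and Slc2a1 stay above 0 on the right.

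The third comparison set the Bcl11a-expressing lines against each other. It used the same TB14 and TB13 arrays, and each of its log2 changes equals that of the first comparison minus that of the second. It is therefore not independent of them. As deposited, 28 of the 30 genes were higher in TB14 than in TB13 and 2 lower, beside 63.4% and 29.4% of all tested genes. After quantile scaling, 21 were higher, 5 lower and 4 not called, beside 38.9% and 41.1%, and the median log2 change was 0.24 over the 30 genes and -0.0087 over all genes. A 2-fold or larger difference was called for 5 genes higher (Slc2a1, Pfkl, Aldoc, Egln3 and Bnip3) and 0 lower as deposited, beside 15.3% and 1.20% of all genes. After quantile scaling it was called for 4 higher and 1 lower, beside 3.15% and 5.50%. Under all 4 scalings 14 genes were higher in TB14 and 1 was lower, beside 12.7% and 22.4% of all genes. The 14 were Slc2a1, Hk1, Pfkl, Aldoa, Aldoc, Tpi1, Gapdh, Pgk1, Ldha, Slc16a1, Pdk1, Egln3, Bnip3 and Bnip3l, which run from glucose uptake to lactate export, and the 1 was Ldhb. The 4 largest after quantile scaling were Egln3 at 1.24, Pfkl at 1.17, Bnip3 at 1.06 and Slc2a1 at 1.03, where the deposited values gave 1.99, 1.89, 1.69 and 1.78. The Pfkl value rests on its brightest probe set, since the other 2 gave 0.19 and 0.14 after quantile scaling, and 0.98 and 0.0084 as deposited, where the dimmest was not called (limma adjusted p = 0.871). The second Egln3 probe set gave 0.51 after quantile scaling and 1.14 as deposited. The 14 calls rest on the brightest probe set of each gene, and for some genes other probe sets were nearly level after quantile scaling. Aldoa had 0.13 on its brightest probe set and 0.33, 0.26 and -0.0089 on the others. Pdk1 had 0.31 on its brightest and 0.030 and 0.47 on the others, and Pgk1 had 0.23 on its brightest and 0.068 on the other. Tpi1 read 2921, 2894, 2850.4 and 2837 in TB14, against 1805, 1734, 1800.2 and 1714 in TB13, and Ldha read 4488, 4539, 4562 and 4406 in TB14, against 3403, 3386, 3367 and 3377 in TB13. In both genes the lines were apart on every array, with log2 changes after quantile scaling of 0.52 and 0.40. In TB14 minus TB13 the dimmer pair of Slc2a3 probe sets gave 1.14 and 0.77 as deposited, against -0.21 on the brightest. Ldhb was lower in TB14, with 70.3, 68.7, 70.7 and 64.9 in TB14, against 137, 132, 114 and 124 in TB13, and a log2 change after quantile scaling of -1.41. Its dimmer probe set gave -0.12 after quantile scaling and -0.30 as deposited.

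Genes of the same pathways outside the set are given for comparison, as lists. In TB14 minus Trib1, 5 of 15 tested other glycolysis genes rose and 2 fell, and after quantile scaling 3 rose and 1 fell. They included Pkm, the pyruvate kinase of these cells, at 0.48 (limma adjusted p = 5.31e-14), Bpgm, which makes 2,3-bisphosphoglycerate, at 0.77, Eno3, an enolase, at 0.23, not called after quantile scaling (limma adjusted p = 0.0557), and the transporter Slc2a6 at -0.94. Pkm averaged 2397 ± 64.8 in TB14, 1566 ± 13.9 in TB13 and 1713 ± 17.3 in Trib1 (SD, n = 4 each). Of 8 tested pentose phosphate genes 3 rose and 2 fell, led by Prps2 at -0.34 and Prps1 at 0.34, both phosphoribosyl pyrophosphate synthetases. Of 9 tested genes for the entry of pyruvate into mitochondria 7 rose and 1 fell, or 7 and 0 after quantile scaling, with Pdp1, a pyruvate dehydrogenase phosphatase, at 0.33, its regulatory subunit gene Pdpr at 0.32, the pyruvate dehydrogenase component Pdhx at 0.27 and pyruvate carboxylase, Pcx, at -0.25, which was not called after quantile scaling (limma adjusted p = 0.0557).

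Of 13 tested genes of the HIF machinery 5 rose in TB14 and 3 fell. The falls were Arnt2, a HIF partner, at -0.47, Cited2, which competes with HIF for its coactivators, at -0.26, and Vhl, the ubiquitin ligase subunit that recognises hydroxylated HIF, at -0.22, while Elob, a subunit of the same ligase, rose by 0.26. Of 22 other tested hypoxia target genes 13 rose and 6 fell. The lipid droplet gene Plin2 rose by 1.02 and Angptl4, an inhibitor of lipoprotein lipase, by 0.99, whereas Bhlhe40, a transcriptional repressor, had the largest fall at -1.58. Plod2, a collagen lysyl hydroxylase, averaged 81.0 in TB14, 23.9 in TB13 and 19.1 in Trib1, a log2 change of 1.56, but it exceeded the array median on the 4 TB14 arrays alone, so it was admitted by the line where it was high and had to differ. These shares stand beside the same 27.0% of all genes called higher and 21.5% called lower. In TB13 minus Trib1 as deposited, the other glycolysis genes had 7 higher and 4 lower, the pentose phosphate genes 0 and 7, the pyruvate entry genes 0 and 8, the HIF machinery 3 and 9 and the other hypoxia targets 5 and 16, beside 29.0% higher and 63.6% lower of all genes. After quantile scaling these lists had 8 and 3, 2 and 3, 2 and 6, 6 and 3, and 7 and 9 in the same order, beside 41.9% and 38.4% of all genes.

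**Figure D5:**
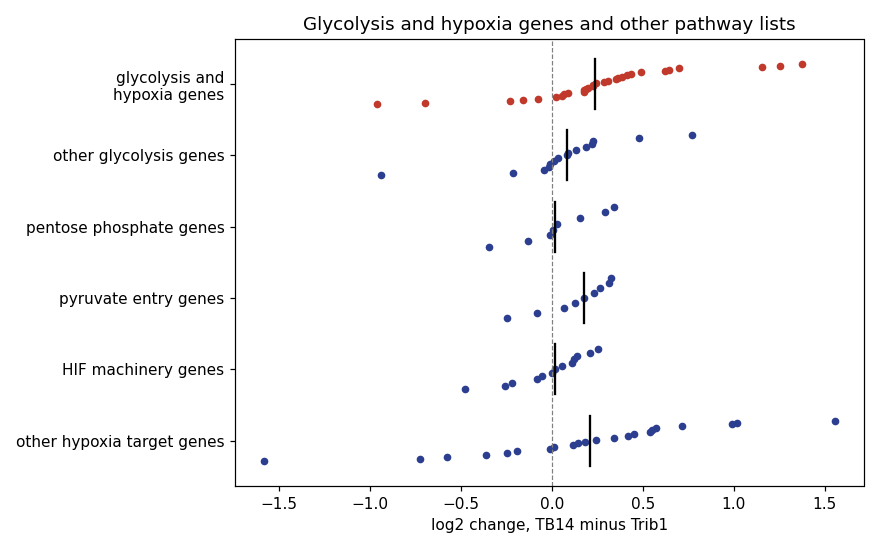
Log2 change in TB14 minus Trib1 (deposited scale, limma fit on 4 arrays per line) of each tested gene, 1 point per gene, in the set of 30 glycolysis and hypoxia genes and in the 5 other pathway lists, with a black bar at each median. The 30 genes have a median of 0.24, and Bhlhe40 lies lowest among the other hypoxia targets, whose rightmost point is Plod2, which passed the brightness limit only through TB14.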

How the data were processed

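Total RNA of 3 mouse AML lines was measured on 12 Affymetrix arrays, 4 per line, grouped by the line names in their labels. The authors deposited linear intensities, which MAS5 produced, per the submitters' processing notes, and neither its version nor its scaling target is given in the sources. Of 45141 probe sets, 104 are controls, 28898 had 1 annotated gene, 551 several and 15588 none, and only those with 1 gene were named. No symbol changed when updated through the mouse RefSeq table. The brightest probe set of each gene (highest mean over the 12 arrays) was kept where it exceeded the array median on at least 4 arrays, which left 11223 genes.

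Before testing, 12.7 (the 25th percentile of the whole table) was added to each intensity and log2 taken, so log2 changes and folds are on that scale and understate dim genes. One limma 3.58.1 model (R 4.3.3) held the 3 groups with a variance trend, and calls required an adjusted p under 0.05 by the Benjamini-Hochberg method over all 11223 genes. Within lines, the median SD over genes was 0.0707 (log2). Probe sets other than the brightest were tested in a separate fit over all single-gene probe sets. Alternatives were quantile, median and control-based scaling, other pseudocounts, limits on brightness and variance models, the mean of probe sets, a replicate block, and leaving out each array. The number of arrays limits the precision, since arrays have no sequencing depth. The procedure was also run on simulated data that held no difference in array scale, so that run says nothing about the scaling of TB13. The 36 genes, the pathway lists and the markers were chosen with earlier results of these data known. All 36 genes were named, with up to 4 called genes of each other list by largest change in TB14 minus Trib1, plus Pkm, and other probe sets of a gene. Promoter windows came from RefSeq (GRCm38.p6).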

Additional observations from a re-analysis of the deposited data

Results flagged for a closer look

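Of 96 sets of 4 arrays checked (each gene with a probe set in each line), 5 held an array far from the other 3, about the share of 1 in 20 that chance gives. Pfkm read 127 on Trib1 replicate 2, against 136 to 138 on the other Trib1 arrays. Egln1 read 167 on TB13 replicate 2, against 189 to 194 on the other TB13 arrays, and on that same array Egln3 read 122, against 140.3 to 144. Bnip3l read 852 on TB14 replicate 3, against 878 to 883 on the other TB14 arrays, and 463 on TB13 replicate 3, against 419 to 425 on the other TB13 arrays.

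For 4 genes the change against Trib1 was called in opposite directions in TB14 and TB13, on the deposited scale and with quantile scaling alike. The difference TB14 minus TB13 comes from the same limma fit and equals the TB14 change minus the TB13 change. Its direction thus followed from how these genes were picked, and it is given as a description. As deposited it was 1.78 for Slc2a1, 0.54 for Pfkfb4 and 0.21 for Gapdh, each higher in TB14 than in Trib1 and lower in TB13 than in Trib1, and -0.21 for Slc2a3, which had the reverse order on its brightest probe set. After quantile scaling these differences were 1.03, 0.50, 0.24 and -0.57. With the hybridization controls Pfkfb4 changed sign, to -0.68, and with the mean of all probe sets Slc2a3 did, to 0.38. After median scaling the Slc2a3 difference was -0.036 and not called (limma adjusted p = 0.135), and Slc2a3 was then lower in TB13 than in Trib1 as well, at -0.12.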

How the results depend on the processing

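TB14 minus Trib1 depended little on the processing. With either other pseudocount, either other limit on brightness, each other variance model and each scaling tried, the counts of 22 higher and 5 lower of the 30 genes stayed within 1.5 times, and leaving out 1 array at a time gave 22 to 23 higher and 4 to 5 lower. The replicate numbers are not stated to pair the arrays, and the correlations did not settle whether they do. Same-numbered arrays of different lines had correlations of deviations between -0.11 and 0.12, with 1 of 12 pairs over 0.1. Of the 12 arrays, 6 correlated best with an array of their own number, and the number expected by chance was not worked out. With the replicate number as a block, 22 genes were higher and 5 lower in TB14 minus Trib1, and no call changed in any of the 3 contrasts. The 2-fold rule left 3 higher and 0 lower in TB14 minus Trib1, 0 and 4 in TB13 minus Trib1 and 5 and 0 in TB14 minus TB13. Quantile scaling joined to the 2-fold rule, a combination chosen after seeing the data, gave 3 and 0, 1 and 0, and 4 and 1. Slc2a3 reversed under the mean of all probe sets, to 0.13 in TB14 minus Trib1 and 0.38 in TB14 minus TB13, and in TB13 minus Trib1 that setting gave Slc2a3 -0.26 and Aldoa -0.068. The TB13 results depended on the scaling, and the cause was not tested. Of the 30 genes, TB13 minus Trib1 had 5 higher and 22 lower as deposited, 15 and 8 after quantile scaling and 22 and 5 with the hybridization controls, with 2 higher after median scaling and 3 higher without a variance trend. TB14 minus TB13 had 28 higher and 2 lower as deposited, 5 lower after quantile scaling, 14 higher and 11 lower with the hybridization controls, 1 lower after median scaling or with the mean of probe sets, and 4 lower without the limit on brightness, which lets Eno2 and P4ha2 in. Leaving out 1 array at a time gave 4 to 5 higher and 21 to 22 lower in TB13 minus Trib1, and 28 and 2 each time in TB14 minus TB13. In TB13 minus Trib1 these changed sign after quantile scaling: Hk1 0.037 (not called), Hk2 0.095, Pfkl 0.16, Pfkm 0.35, Pfkp 0.017 (not called), Tpi1 0.14, Pdk3 0.17, Egln1 0.27, Bnip3 0.26 and Bnip3l 0.13. With the hybridization controls these did: Hk1 0.18, Hk2 0.22, Pfkl 0.59, Pfkm 0.81, Pfkp 0.14, Pfkfb3 0.43, Pfkfb4 0.95, Tpi1 0.22, Pdk1 0.11, Pdk3 0.31, Egln1 0.50, Egln3 0.22, Bnip3 0.41, Bnip3l 0.26, Ddit4 0.083, Vegfa 0.11 (not called) and Mxi1 0.19. After median scaling these did: Slc2a3 -0.12, Aldoa -0.17, Pgk1 -0.11, Ldha -0.17 and Hif1a -0.034 (not called). In TB14 minus TB13 these changed sign after quantile scaling: Hk3 -0.18, Pfkm -0.092 (not called), Egln1 -0.062 (not called), Ddit4 -0.048 and Vegfa -0.31. With the hybridization controls these did: Hk3 -0.81, Pfkm -0.51, Pfkp -0.039 (not called), Pfkfb3 -0.25, Pfkfb4 -0.68, Slc16a3 -0.92, Pdk3 -0.089 (not called), Hif1a -0.019 (not called), Egln1 -0.25, Ankrd37 -0.55, Ddit4 -0.13 and Vegfa -0.85. Over all genes, TB13 minus Trib1 had 3258 higher and 7135 lower as deposited, 4305 lower after quantile scaling, 8284 and 1279 with the hybridization controls, and 7678 higher without the limit on brightness. TB14 minus TB13 had 7118 and 3296 as deposited, 4371 higher after quantile scaling, 1473 and 7998 with the hybridization controls, and 7771 lower without the limit. In TB13 minus Trib1 as deposited, the call of Slc2a3 was lost without TB13 replicate 2 (limma adjusted p = 0.0867), TB13 replicate 3 (0.0691), Trib1 replicate 2 (0.132) or Trib1 replicate 4 (0.104), that of Tpi1 without Trib1 replicate 4 (0.06) and that of Pgk1 without Trib1 replicate 3 (0.0542). In TB14 minus Trib1, Pfkp was called without TB13 replicate 2 (0.0326). Precision is limited by the number of arrays, and dim genes such as Slc16a3 lie near the background signal, where log2 changes are damped.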
